A study of Mus musculus with 8 samples.

Results

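Car8, Casq2, Inpp5a, Pvalb, Il16 and Gdf10 are genes known for strong expression in Purkinje cells or in other cells of the cerebellum. They were followed in polyadenylated 3′ ends of total mouse brain. The 6 genes were selected by symbol, after their levels had been seen to differ between libraries. The table of proximal and distal sites in the 3′-most exon lists 6 of 6 among 7951 genes. The table that sets a site in an upstream exon against the 3′-most exon lists 2 of them, Inpp5a and Pvalb, among 6147 genes. All 6 passed the filter on low counts. The levels chose the genes, so they are given as a description with no test. The choice of site within a gene was tested.

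The animals were 5 Cstf2 D50A mutants (mutant 1 to 5) and 3 wild types (wild type 1 to 3), all killed on postnatal day 50. D50A replaces an aspartate at residue 50 of CSTF2, the subunit of the cleavage stimulation factor that binds RNA downstream of polyadenylation sites. Both genotypes came from 1 colony congenic on C57BL/6NCrl, with wild types given as littermates, and none was treated. Each library came from homogenised total brain, so cell types are not separated, and sex is not given in the labels. Reads at both sites ran from 10177902 to 13449054 in mutants and from 9616953 to 17530761 in wild types in the first table, and from 7768925 to 10279635 in mutants and from 7075383 to 13145966 in wild types in the second.

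Purkinje cells are the output neurons of the cerebellar cortex. They receive excitation from the parallel fibres of granule cells and from climbing fibres, and they rely on calcium released from internal stores through the IP3 receptor ITPR1. CAR8 is a carbonic anhydrase relative without enzymatic activity that binds ITPR1 and lowers its affinity for IP3. INPP5A is the 5-phosphatase that removes IP3, CASQ2 is a calsequestrin that buffers calcium inside the reticulum, and PVALB is the cytosolic calcium buffer of Purkinje cells, cerebellar interneurons and fast-spiking interneurons of the forebrain. IL16 has a neuronal form with PDZ domains that is found in cerebellar granule cells and hippocampus. GDF10 (BMP3b), a ligand of the TGF-β family, is made by Bergmann glia, the radial astrocytes that ensheathe Purkinje cells.

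Site positions refer to mm9 and come without a chromosome in the files. For Car8 the proximal site is at 8072423 and the distal site at 8068638, 3785 bases apart, the widest spacing of the 6. The sites lie 190 bases apart for Casq2, 426 for Inpp5a, 362 for Pvalb, 531 for Il16 and 56 for Gdf10. Positions fall from the proximal to the distal site in Car8, Pvalb and Il16, which places these genes on the minus strand, and they increase in Casq2, Inpp5a and Gdf10. The promoters shown are those of the most abundant of the 6 genes, Pvalb and Inpp5a. They come from RefSeq on GRCm38.p6, at chr15:78206351-78206650 (minus strand) and chr7:139388859-139389158 (plus strand). Each runs from 250 bases before to 50 bases after the start, with GGGCGG or its reverse complement in capitals.
Pvalb: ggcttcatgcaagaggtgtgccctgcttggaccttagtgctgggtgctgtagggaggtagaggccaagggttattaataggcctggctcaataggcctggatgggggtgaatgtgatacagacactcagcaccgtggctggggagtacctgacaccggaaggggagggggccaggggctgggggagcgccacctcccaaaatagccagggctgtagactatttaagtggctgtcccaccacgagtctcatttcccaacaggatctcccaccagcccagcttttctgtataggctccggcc
Inpp5a: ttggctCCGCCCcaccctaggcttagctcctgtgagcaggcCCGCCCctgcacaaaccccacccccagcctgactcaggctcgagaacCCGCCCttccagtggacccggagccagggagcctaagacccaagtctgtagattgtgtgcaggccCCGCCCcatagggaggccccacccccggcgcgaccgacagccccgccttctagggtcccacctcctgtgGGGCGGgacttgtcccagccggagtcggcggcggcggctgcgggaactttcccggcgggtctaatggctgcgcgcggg
GGGCGG (the GC box) occurred 5 times in this Inpp5a window, 4 times in that of Gdf10 and 0 times in that of Pvalb, and 35.66% of 32851 RefSeq promoter windows of the same length hold it on either strand. TATAAA (held by 13.62% of the windows) and AGGTCA (held by 16.26%) were searched in the same way and were found in neither printed window. RefSeq promoter windows matched 5 of the 6 genes, with 9 windows in all. Inpp5a and Pvalb each had a second window, at chr7:139400244-139400543 and chr15:78204188-78204487, and GGGCGG occurred 0 times in both. These are matches of letters only.

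Car8 showed the widest range of the 6 genes. Its level was 5.90, 6.16, 6.72, 6.93 and 86.5 CPM (reads at both sites scaled to the TMM-adjusted total of the library) in mutants 1 to 5, against 132, 92.5 and 96.0 CPM in wild types 1 to 3. Mutants 1 to 4 lay close together and far below every wild type, while mutant 5 lay just below the lowest wild type, so the genotypes did not overlap. On the log2 scale Car8 averaged 3.43 ± 1.68 in mutants (SD, n = 5) and 6.72 ± 0.282 in wild types (SD, n = 3), a difference of -3.29, or -4.04 without mutant 5. Car8 was the only 1 of the 6 genes without overlap in level, where 4.75% of all 7876 tested genes did not overlap in either direction and 2.3% had every mutant below every wild type; as the genes were chosen by level, nothing is read from this count. In bulk tissue, fewer cells of a type and less RNA per cell cannot be told apart.

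Casq2 was measured at low counts, from 51 to 136 reads in mutants and from 118 to 195 in wild types. Its level was 4.86, 5.75, 4.89, 4.80 and 12.2 CPM in mutants 1 to 5, against 14.3, 11.7 and 9.70 CPM in wild types. Mutant 5 lay inside the wild-type range and the other mutants below it. The averages were 2.59 ± 0.58 log2 CPM in mutants and 3.55 ± 0.278 in wild types, a difference of -0.96, or -1.21 without mutant 5.

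Inpp5a and Pvalb were the deepest measured of the 6. Inpp5a stood at 279, 295, 350.4, 294 and 708 CPM in mutants 1 to 5 and at 665, 699.9 and 510.4 CPM in wild types. Mutant 5 was above all wild types and mutants 1 to 4 below all of them. The difference of log2 means was -0.78 (8.49 ± 0.56 in mutants and 9.27 ± 0.244 in wild types), the smallest of the 6 genes, or -1.03 without mutant 5. Pvalb stood at 185, 183, 193, 186 and 642 CPM in mutants and at 966, 721 and 551 CPM in wild types. The first 4 mutants differed from each other by less than the wild types did, and mutant 5 was within the wild-type range. The difference was -1.60 (7.90 ± 0.798 log2 CPM in mutants and 9.505 ± 0.406 in wild types), or -1.96 without mutant 5. The upstream exon table, which shares reads with the first, gave -0.79 for Inpp5a and -1.61 for Pvalb.

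Il16 had the second widest range. Its level was 5.80, 8.33, 8.79, 6.22 and 44.2 CPM in mutants 1 to 5, against 49.9, 50.4 and 40.9 CPM in wild types, and mutant 5 again lay within the wild-type range. The averages were 3.37 ± 1.202 log2 CPM in mutants and 5.55 ± 0.17 in wild types, a difference of -2.18, or -2.71 without mutant 5. Gdf10 followed the pattern least. It stood at 9.48, 10.5, 5.77, 10.6 and 15.02 CPM in mutants and at 19.7, 13.5 and 21.7 CPM in wild types, with mutant 3 lowest. Its averages were 3.30 ± 0.497 log2 CPM in mutants and 4.17 ± 0.361 in wild types, a difference of -0.87, or -1.02 without mutant 5. In each of the 6 genes mutants 1 to 4 lay below all wild types, and in 5 of 6 mutant 5 lay within or above the wild-type range, as the plot of levels by library shows. Without mutant 5, a comparison chosen after seeing the data, the other mutants lay below all wild types in 9.28% of all 7876 genes, and nothing is read from the count of 6, since level chose the genes.

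**Figure D1:**
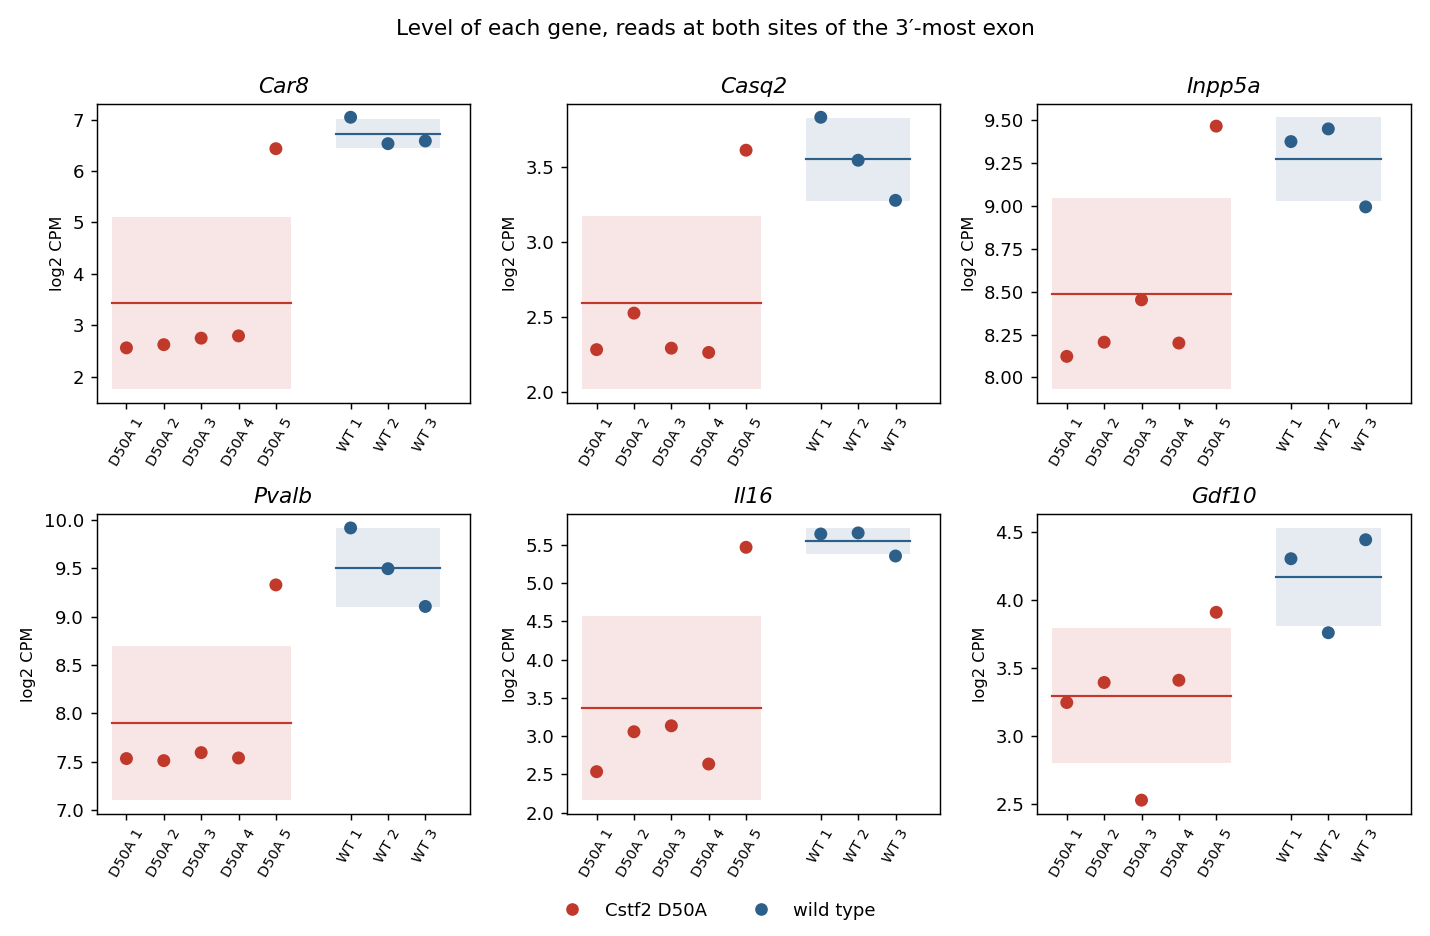
Level of each of the 6 genes in log2 CPM (vertical axes, a separate range per gene) in every library, with Cstf2 D50A mutants left of wild types; lines are genotype means and bands 1 SD. Mutants 1 to 4 lie below all wild types in each panel, and mutant 5 lies at or near the wild-type values.

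Markers of cerebellar granule cells moved with these levels. Their mean over 17 measured genes of a list of 24, none of them among the 6, was 5.03, 5.04, 4.92, 5.03 and 6.81 log2 CPM in mutants 1 to 5 and 6.90, 6.78 and 6.74 in wild types. In 17 of 17 genes mutant 5 was above mutants 1 to 4, and in 9 of 17 it lay within the wild-type range. The share of all genes with either order was not counted, so nothing is read from these counts. The edgeR log2 change was below 0 in 15 of 17. Nfix and Kcnk9 averaged higher in mutants, by 0.17 and 0.46 log2 CPM. Cbln3 and Gabra6, named next, do not stand for the whole list. Defining granule cell markers were nearly absent from mutants 1 to 4 although the labels give total brain: Cbln3 had 15, 26, 20 and 15 reads there and 3042 in mutant 5, against 3128, 5137 and 3540 in wild types. Gabra6 had 0 to 2 reads in mutants 1 to 4 and 253 in mutant 5, against 280 to 400 in wild types. How far cerebellar tissue in a library sets the levels of the 6 genes was not tested, and in a comparison without mutant 5 cerebellar content and genotype cannot be told apart.

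Markers of other regions differed less between libraries. Cortex and hippocampus markers (19 of 20 measured) averaged 7.11 to 7.19 log2 CPM in mutants 1 to 4 and 6.93 in mutant 5, against 6.40 to 7.04 in wild types. Striatal markers (10 of 16 measured) averaged 5.69 to 5.88 in mutants 1 to 4 and 5.46 in mutant 5, against 5.32 to 5.57 in wild types, so here mutant 5 also lay with the wild types, on the lower side. The list of cortical interneuron markers, some of whose cells use Pvalb too, had a mean of 5.84 to 5.98 in mutants and of 5.79 to 5.87 in wild types over 11 genes, but its genes went both ways. Gad1, which makes GABA, averaged 5.92 ± 0.582 in mutants and 4.72 ± 0.889 in wild types, while Calb2, also a granule cell gene, averaged 7.93 ± 0.648 in mutants and 8.98 ± 0.453 in wild types. The plot of marker lists sets these means side by side.

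**Figure D2:**
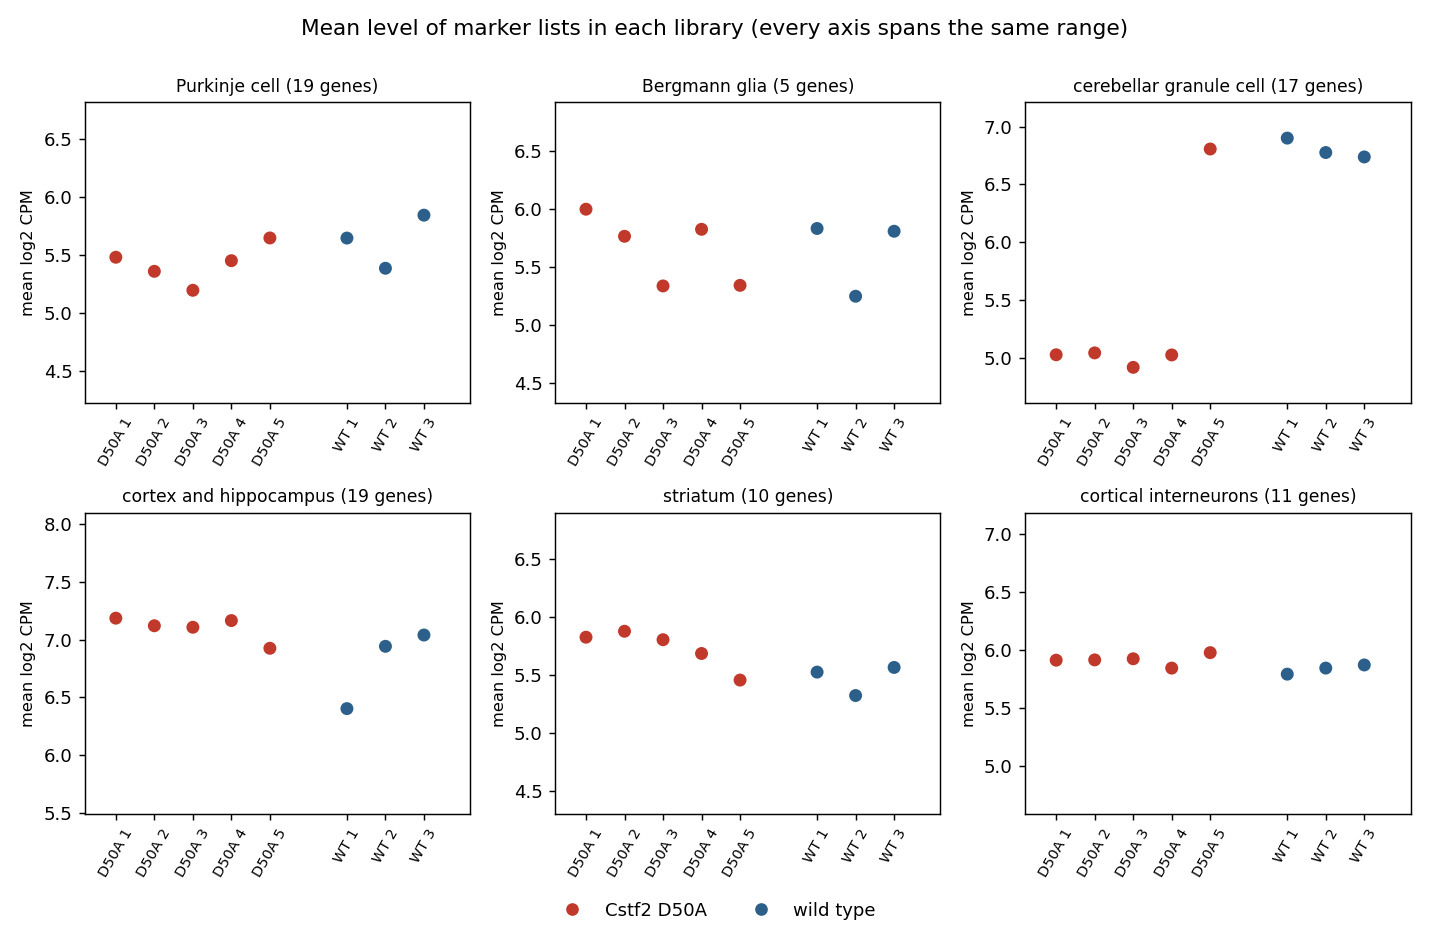
Mean log2 CPM of 6 marker lists in every library (vertical axes cover the same span in log2 units), Cstf2 D50A mutants left of wild types. Only the granule cell list has mutants 1 to 4 near 5 log2 CPM with mutant 5 at 6.81 among the wild types at 6.74 to 6.90.

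Other Purkinje cell genes were examined through a list of 32, of which 19 were measured at proximal and distal sites. Over all 7876 tested genes edgeR called 0 in level (0%), and 14.3% had an unadjusted p under 0.05 (7.05% lower in mutants). Of the 19, 0 were called, 8 were lower and 1 higher at an unadjusted p under 0.05, and their median log2 change was -0.24, against 0.0069 over all genes. DESeq2 called 0 of the 19 and 0.33% of all genes tested. Rgs8, a regulator of G protein signalling in Purkinje cells, averaged 6.05 ± 0.558 log2 CPM in mutants and 7.05 ± 0.215 in wild types (SD, n = 5 and 3; log2 change -0.90, SE 0.296, edgeR adjusted p = 0.343). Rora, the nuclear receptor whose loss causes the staggerer phenotype, averaged 7.58 ± 0.264 in mutants and 8.17 ± 0.228 in wild types (log2 change -0.58, SE 0.173, edgeR adjusted p = 0.343). Stk17b, a kinase, averaged 2.73 ± 0.561 in mutants and 4.01 ± 0.305 in wild types (log2 change -1.21, SE 0.307, edgeR adjusted p = 0.343).

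At proximal and distal sites the Purkinje list as a whole followed the 6 genes less closely than the granule list. Its mean was 5.48, 5.36, 5.20, 5.45 and 5.65 log2 CPM in mutants 1 to 5 and 5.65, 5.39 and 5.85 in wild types, so the genotypes overlapped. Mutant 5 was above mutants 1 to 4 in 9 of its 19 genes, a count for which the share over all genes was likewise not taken. Itpr1 itself, which many neurons outside the cerebellum use, stood at 7.57 ± 0.161 log2 CPM in mutants and 7.65 ± 0.367 in wild types, and Dner, a Notch ligand of Purkinje cells, at 8.07 ± 0.15 in mutants and 8.11 ± 0.207 in wild types. Itpr1, Dner and the next genes were singled out after their values were seen. Slc1a6, the Purkinje cell glutamate transporter, and Grid2ip, a scaffold of the GluD2 receptor, lay lower in the mutant mean, without a call. Slc1a6 averaged 6.70 ± 0.878 in mutants and 7.90 ± 0.0807 in wild types, and Grid2ip 4.01 ± 0.794 in mutants and 5.23 ± 0.567 in wild types. In the upstream exon table edgeR also called 0 of 6001 genes in level (0%, with 15.1% at an unadjusted p under 0.05). There 13 genes of the Purkinje list were measured, with 6 lower and 1 higher at that p and 10 below 0. Their mean was 5.07 to 5.37 log2 CPM in mutants 1 to 4, 5.82 in mutant 5 and 5.57 to 5.92 in wild types. In that table the list mean thus had mutants 1 to 4 below all wild types and mutant 5 within their range. Homer3, a postsynaptic scaffold that binds ITPR1, averaged 6.94 ± 0.949 in mutants and 8.50 ± 0.168 in wild types (log2 change -1.25, SE 0.485, edgeR adjusted p = 0.327). Mutant 5 was at 8.62 and mutants 1 to 4 ran from 6.43 to 6.70.

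The wider pathway of IP3 and calcium signalling, with Car8, Inpp5a, Casq2 and Pvalb left out, had 42 of 57 genes measured. edgeR called 0, with 2 higher and 3 lower at an unadjusted p under 0.05, and the median log2 change was 0.06. Of the 42 genes, 18 had a log2 change below 0. The genes named next, Calb1, Calb2 and Camk4, are the 3 lower ones and do not stand for the list. Calb1, a calcium buffer of Purkinje cells and forebrain neurons, averaged 6.20 ± 0.168 log2 CPM in mutants and 6.60 ± 0.272 in wild types (edgeR adjusted p = 0.343). Calb2, the calretinin of granule cells and interneurons, averaged 7.93 ± 0.648 in mutants and 8.98 ± 0.453 in wild types (edgeR adjusted p = 0.343), with mutant 5 at 9.02 and mutants 1 to 4 from 7.41 to 7.97. Camk4, a calcium-dependent kinase abundant in granule cells, averaged 7.57 ± 0.193 in mutants and 8.01 ± 0.0981 in wild types (edgeR adjusted p = 0.343). Among carbonic anhydrases other than Car8, 4 of 15 were measured and 0 reached an unadjusted p under 0.05; Car2 averaged 6.90 ± 0.309 in mutants and 6.52 ± 0.443 in wild types, and Car10, like Car8 a member without enzymatic activity, averaged 6.26 ± 0.0575 in mutants and 6.15 ± 0.132 in wild types. Among other genes of BMP and GDF signalling, 13 of 28 were measured and 0 reached that p. Among other Bergmann glia markers (5 of 13 measured), edgeR called 0, with 1 higher and 2 lower at an unadjusted p under 0.05, and the median log2 change was 0.28. Timp4, a metalloproteinase inhibitor, averaged 6.998 ± 0.562 in mutants and 8.14 ± 0.607 in wild types (edgeR adjusted p = 0.343), and Aqp4, the water channel of astrocytes, 7.57 ± 0.234 in mutants and 8.05 ± 0.422 in wild types (edgeR adjusted p = 0.343). Ptprz1, a receptor phosphatase of glia, was the higher one, at 2.40 ± 0.627 in mutants and 1.25 ± 0.946 in wild types (edgeR adjusted p = 0.343). Hopx, a homeodomain protein of radial glia, averaged 1.82 ± 0.975 in mutants and 1.51 ± 0.604 in wild types (edgeR adjusted p = 0.58).

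The level of each of the 6 genes was then set against the granule list in the same library, by subtracting the list's mean log2 CPM. That mean leans on Cbln3 and Crtam, which differed by -6.18 and -5.68 between genotype means and had few reads in mutants 1 to 4. The median log2 change over the 17 genes of the list, taken from the edgeR fit and not from genotype means, was -0.84. A constant distance from the mean is therefore not a constant distance from most genes of the list. Pvalb kept nearly the same distance in all mutants, at 2.51, 2.47, 2.68, 2.51 and 2.52 log2 units above the list, against 3.02, 2.72 and 2.37 in wild types. For Pvalb the genotypes overlapped and the means differed by -0.16. Car8 did not keep its distance: it stood at -2.47, -2.42, -2.17, -2.23 and -0.37 in mutants and at 0.15, -0.24 and -0.15 in wild types. Between mutants 1 to 4 and the other libraries Car8 thus differed by more than the mean of the granule list did. Il16 lay between these, at -2.49, -1.98, -1.78, -2.39 and -1.34 in mutants and at -1.26, -1.12 and -1.38 in wild types.

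Inpp5a, Casq2 and Gdf10 differed less between genotypes than the mean of the granule list, so that their level relative to that mean was higher in mutants. Their own differences of genotype means, -0.78, -0.96 and -0.87, lay near the list's median edgeR log2 change of -0.84, which is not the same measure. Inpp5a stood at 3.10, 3.16, 3.53, 3.18 and 2.66 above the list in mutants and at 2.48, 2.68 and 2.26 in wild types. Casq2 stood at -2.75, -2.52, -2.63, -2.76 and -3.19 in mutants and at -3.07, -3.23 and -3.46 in wild types. Gdf10 stood at -1.78, -1.65, -2.39, -1.62 and -2.90 in mutants and at -2.60, -3.02 and -2.29 in wild types. The differences of means were -1.85 for Car8, -0.74 for Il16, 0.48 for Casq2, 0.66 for Inpp5a and 0.57 for Gdf10. Against the mean of the Purkinje list instead, a yardstick chosen after seeing the data, all 6 were lower in mutants, from -0.59 for Inpp5a to -3.09 for Car8, so the direction for Casq2, Inpp5a and Gdf10 depends on the yardstick.

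**Figure D3:**
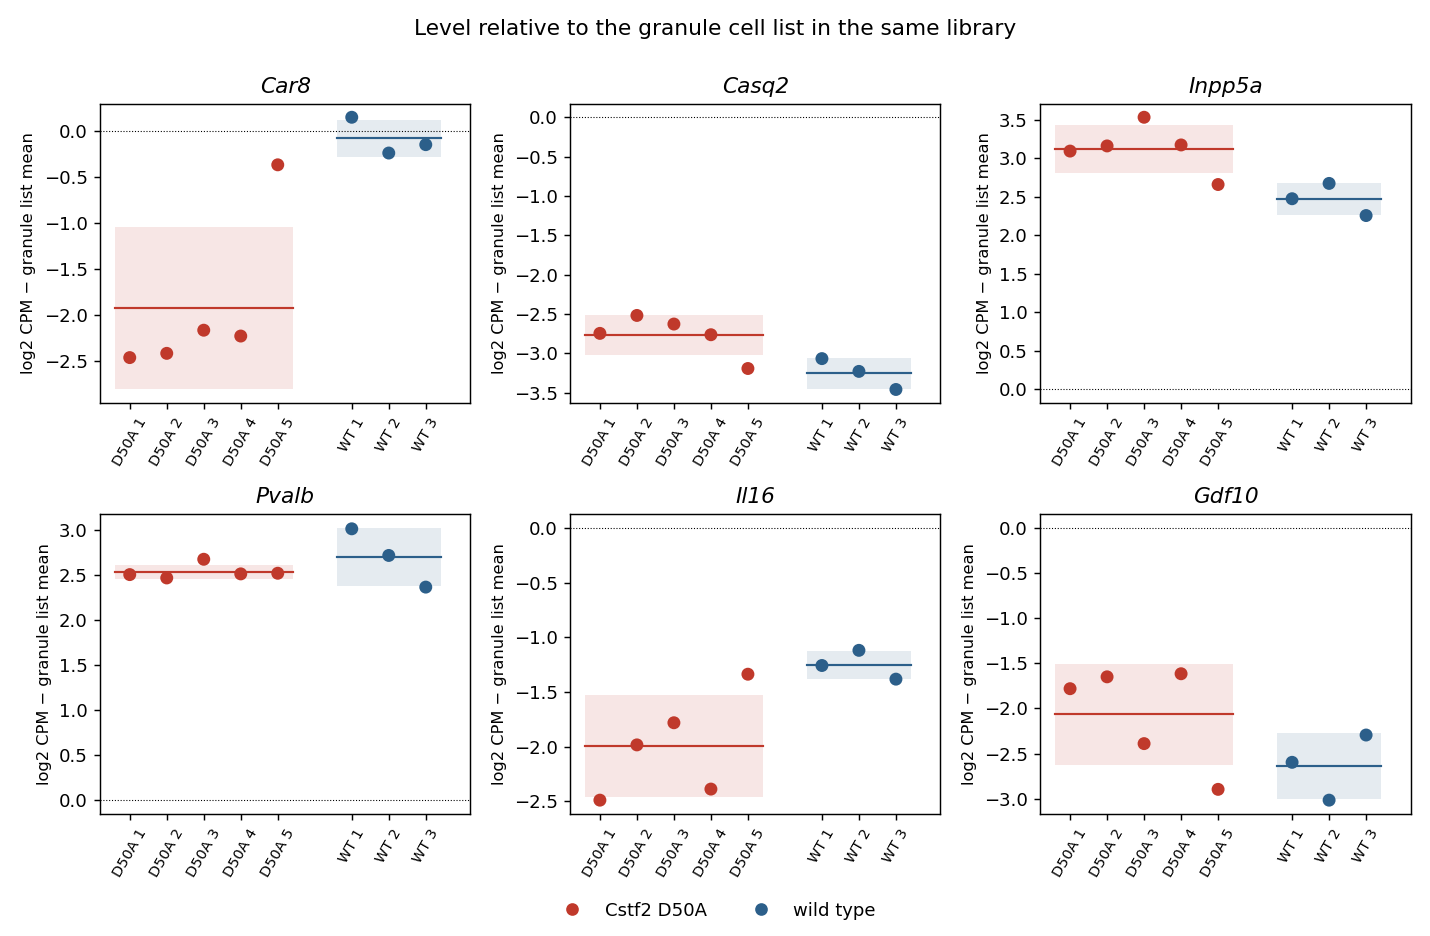
Log2 CPM of each gene minus the mean log2 CPM of the cerebellar granule list in the same library (vertical axes, a separate range per gene), Cstf2 D50A mutants left of wild types; lines are genotype means, bands 1 SD and the dotted line the level of the list. Pvalb lies at 2.37 to 3.02 in all libraries, whereas Car8 lies at -2.47 to -2.17 in mutants 1 to 4 and at -0.37 to 0.15 elsewhere.

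The genes outside the 6 whose levels were most like theirs were found by Pearson's correlation with the mean of their standardised log2 CPM over 8 libraries, among 7371 genes averaging 50 or more reads. They were Kcnk10, a two-pore potassium channel (r = 0.998), Neurod1 (r = 0.996) and Zic1 (r = 0.991), transcription factors of granule cells, Cbln3 (r = 0.993) and Cbln1 (r = 0.989), cerebellins of granule cells, and Cnpy1 (r = 0.991). The correlations are a description, since they rest mainly on the gap between mutants 1 to 4 and the other libraries. Kcnk10 averaged 6.11 ± 0.455 log2 CPM in mutants and 6.95 ± 0.135 in wild types, with mutant 5 at 6.92. Cnpy1, a regulator of FGF signalling described in zebrafish, averaged 1.58 ± 2.43 in mutants and 6.12 ± 0.089 in wild types, with mutant 5 at 5.92 and mutants 1 to 4 from 0.3 to 0.57.

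Site choice could be compared apart from the level of a gene, because each library serves as its own control for the depth of both sites. Differences in cell content between libraries are not removed in this way. How far cerebellar content sets the shares was not tested. For Pvalb the distal site held 47.9% of 1963 reads in mutant 1, 45.6% of 2268 in mutant 2, 44.1% of 2430 in mutant 3, 53.0% of 2618 in mutant 4 and 58.9% of 7164 in mutant 5. In wild types it held 58.6% of 8638, 55.0% of 12072 and 56.2% of 6724 reads. Mutants 1 to 4, the libraries with few granule cell markers, were thus below all wild types and mutant 5 was above them, so the genotypes overlapped. The exact Clopper-Pearson 95% intervals, which cover counting error only, were 42.1% to 46.1% in mutant 3 and 51.0% to 54.9% in mutant 4, and 54.1% to 55.9% in wild type 2, which overlaps the interval of mutant 4.

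The mean distal share of Pvalb was 49.9 ± 6.05% in mutants (SD, n = 5) and 56.6 ± 1.83% in wild types (SD, n = 3). The edgeR log2 change in distal over proximal reads was -0.39 (SE 0.21, 95% interval -0.85 to 0.08, adjusted p = 0.425), which does not pass the threshold of 0.05. Without mutant 5 it was -0.52 (edgeR adjusted p = 0.0993) and the shares differed by -8.91 percentage points, in place of -6.66 with all libraries. Pooled over the reads of a genotype, where mutant 5 counts most, the difference was -3.76 points. With the granule list mean as a covariate the log2 change turned to 0.15 (edgeR adjusted p = 0.9996), and the adjusted p over all alternatives ran from 0.0993 to 0.9996. Proximal Pvalb ends averaged 6.90 ± 0.651 log2 CPM in mutants and 8.30 ± 0.367 in wild types, a difference of -1.41, and distal ends 6.89 ± 0.94 in mutants and 8.68 ± 0.438 in wild types, a difference of -1.79.

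The distal site of Car8 lies 3785 bases beyond the proximal one, and its share of reads varied most among mutants 1 to 4, which had fewest reads. The distal share was 48.4% of 62 reads, 61.8% of 76, 59.5% of 84, 76.3% of 97 and 60.3% of 964 in mutants 1 to 5, against 52.4% of 1181, 55.4% of 1548 and 61.3% of 1172 in wild types. The interval of mutant 1 ran from 35.5% to 61.4% and that of mutant 4 from 66.6% to 84.3%, so mutant 4 was above the wild types, whose intervals together ran from 49.5% to 64.1%. The means were 61.3 ± 9.95% in mutants and 56.3 ± 4.51% in wild types (log2 change 0.32, SE 0.321, 95% interval -0.40 to 1.03, edgeR adjusted p = 0.629). Without mutant 4 the log2 change was 0.09 (edgeR adjusted p = 0.878).

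Gdf10, whose sites lie 56 bases apart, had 70.0%, 70.8%, 54.2%, 66.4% and 70.7% of its reads at the distal site in mutants 1 to 5, from 72 reads in mutant 3 and 100 or more in the others, against 79.5%, 68.1% and 66.4% in wild types, from 176 to 265 reads. Mutant 3 was lowest and wild type 1 highest, and the others overlapped. The log2 change was -0.31 (SE 0.334, 95% interval -1.05 to 0.43, edgeR adjusted p = 0.654). It rested on both of these libraries: without wild type 1 it was -0.0247 (edgeR adjusted p = 0.983) and without mutant 3 it was -0.14 (edgeR adjusted p = 0.851), with 0.447 to 0.9996 over all alternatives. The shares differed by -4.96 percentage points with all libraries, by -0.871 without wild type 1 and by -1.90 without mutant 3.

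For Il16 the distal share was 78.7%, 69.9%, 74.5%, 72.4% and 79.3% in mutants 1 to 5, from 61 to 493 reads, against 75.1%, 75.9% and 79.0% in wild types, from 446 to 843 reads. The genotypes overlapped, with a log2 change of -0.12 (SE 0.253, 95% interval -0.68 to 0.44, edgeR adjusted p = 0.955). Casq2 had 94.1%, 91.5%, 96.7%, 97.0% and 89.0% of its reads at the distal site in mutants and 93.7%, 91.3% and 94.1% in wild types. Its proximal site rested on 2 to 15 reads in mutants and 7 to 17 in wild types, and its log2 change was 0.07 (SE 0.387, 95% interval -0.79 to 0.93, edgeR adjusted p = 0.997). Inpp5a ended almost wholly at the distal site, with 97.8% to 98.6% of 2953 to 7893 reads in mutants and 98.2% to 98.6% of 5946 to 11712 reads in wild types (log2 change -0.07, SE 0.197, 95% interval -0.51 to 0.37, edgeR adjusted p = 0.883). The level of Inpp5a thus differed between libraries by more than 1 log2 unit while its distal share stayed within 1 percentage point.

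**Figure D4:**
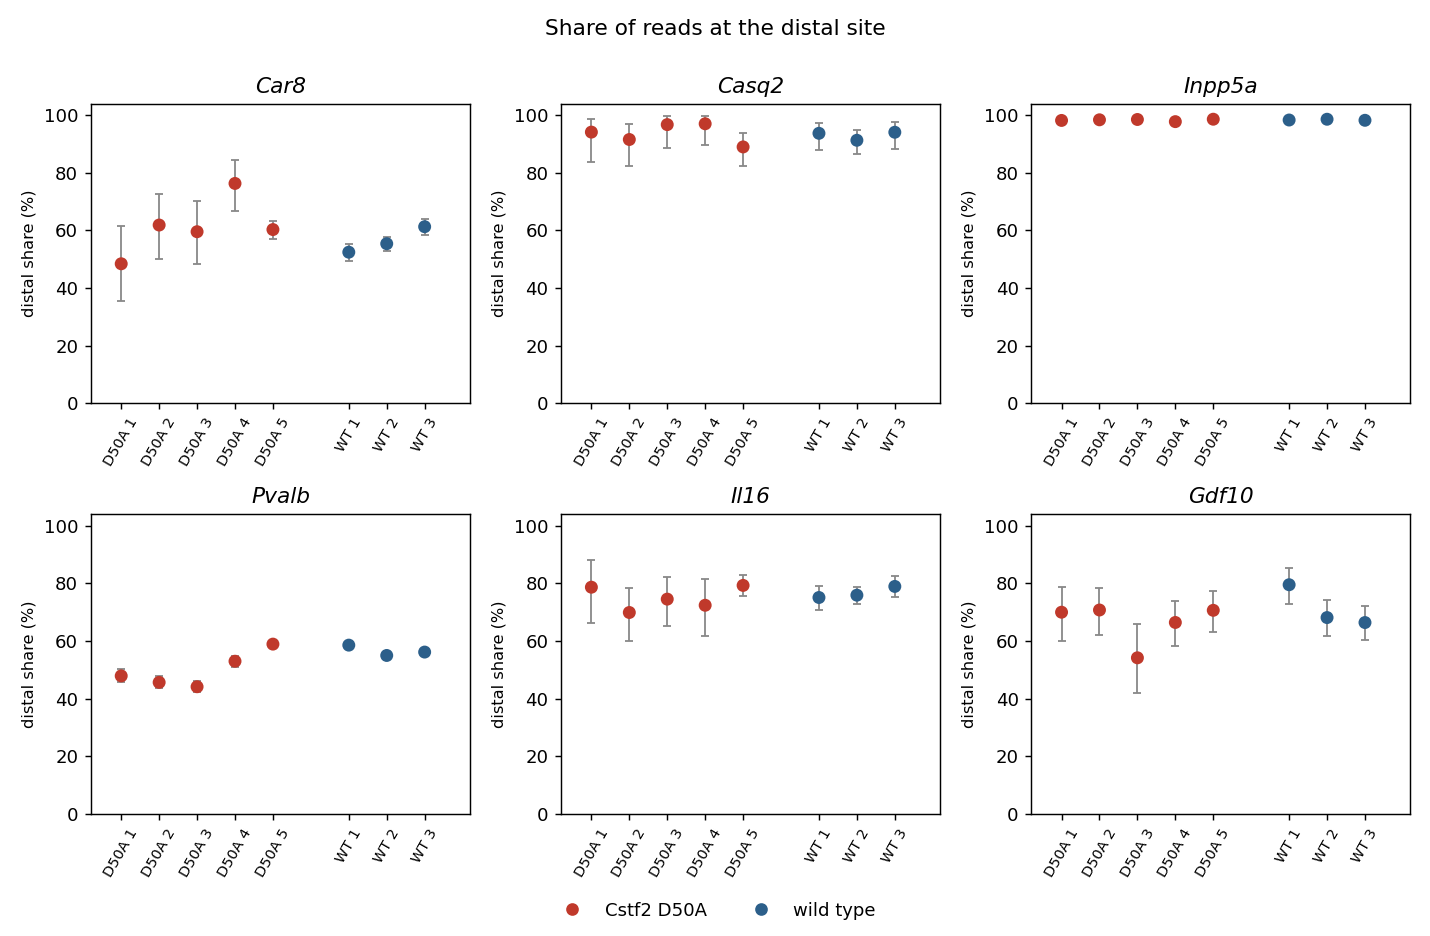
Percentage of reads at the distal site for each of the 6 genes in every library (vertical axes from 0 to just over 100%), Cstf2 D50A mutants left of wild types; bars are exact 95% binomial intervals, which cover counting error only. The genotypes overlap in all 6 genes; for Pvalb mutants 1 to 4 lie at 44.1% to 53.0% and the other libraries at 55.0% to 58.9%.

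Across the 6 genes, 0 passed edgeR's test of distal against proximal usage, where edgeR called 0 of 7876 pairs (0%) and DESeq2 0.267% of them. 0 of the 6 reached an unadjusted p under 0.05 in edgeR, as 12.9% of all pairs did, and DESeq2 called 0 of the 6. The shares of the genotypes did not overlap in 0 of 6, against 4.15% of all pairs. The log2 change lay above 0 in 2 of 6, Car8 and Casq2, with a median of -0.09, while over all pairs 59.2% lay above 0 with a median of 0.12. The bound farthest from 0 was 1.05 log2 units away (Gdf10), and at these depths and numbers of animals a change within an interval cannot be told from none.

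Between the upstream exon and the 3′-most exon, edgeR called 0 of 6001 pairs (0%; 14% at an unadjusted p under 0.05, where neither gene was) and DESeq2 0.0833%, with neither gene among them. Shares did not overlap in 5.88% of pairs and in neither gene. Nearly all reads of both listed genes ended in the 3′-most exon. Pvalb had 4, 1, 7, 5 and 6 upstream reads in mutants 1 to 5, against 6, 11 and 5 in wild types, or 99.7% to 99.96% of reads in the 3′-most exon in mutants and 99.9% in each wild type. Its log2 change was -0.90 (SE 0.487, 95% interval -1.95 to 0.15, edgeR adjusted p = 0.409), with 0.162 to 0.9997 over the alternatives. Inpp5a had 1 to 4 upstream reads in mutants and 1 to 5 in wild types (log2 change -0.57, SE 0.816, 95% interval -2.33 to 1.18, edgeR adjusted p = 0.785). With so few upstream reads, a library's share moves with single reads. Upstream Inpp5a ends averaged -1.998 ± 0.693 log2 CPM in mutants and -1.99 ± 1.17 in wild types, a difference of -0.007, while its 3′-most exon ends differed by -0.79.

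**Figure D5:**
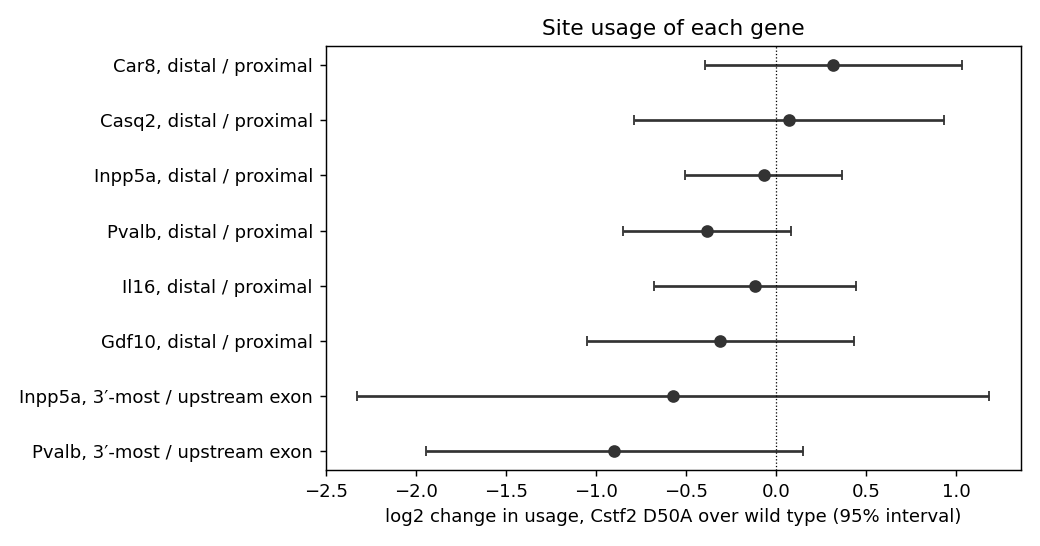
Log2 change in usage, Cstf2 D50A over wild type (horizontal axis), with 95% intervals, for the 6 pairs of distal over proximal sites and the 2 pairs of 3′-most over upstream exon. Every interval includes 0, and the 2 upstream pairs have the widest ones.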

How the data were processed

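QuantSeq 3′ mRNA-Seq REV libraries, which read from the poly(A) tail, were made from total RNA, per the labels' protocols. mm9, STAR 2.5, HTSeq 0.6.0 and FastQC 0.11.3 are listed, without roles, per the submitters' processing notes; site picking, filtering of internal priming and use of strand are not stated in any source here. Values are raw counts of reads at each site, as the authors deposited them; 0 value columns were left out. The genes and the marker lists were chosen with earlier results of these data known. Replicate numbers follow record order and only name animals.

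Pairs were kept where both sites together averaged 20 reads per library and each site had 10 in all (7876 and 6001 pairs). For usage, edgeR's quasi-likelihood test took the term for site by genotype in a fit with a term per library, and for summed level it was run with TMM scaling and genotype alone. p-values were Benjamini-Hochberg adjusted over all pairs of a table; edgeR's p cannot fall below that of a Poisson fit, which set it for Casq2 and Il16. Standard errors divide the log2 change by the root of the F statistic. Levels are log2 CPM with 0.5 added per count. CPM and shares were computed from the counts; the fits were tested on simulated data. Alternatives were DESeq2, no filter, other scalings, a granule list covariate, pooled reads and leaving out each library. Genes named beyond the 6 were drawn from up to 4 per list and table with the smallest edgeR p and from the 6 most alike in level. Some genes that this rule gives are left unnamed. Itpr1, Dner, Slc1a6 and Grid2ip fall outside this rule and were chosen after their values were seen. A gene that this rule names is not reported here. Versions were R 4.3.3, edgeR 4.0.16 and DESeq2 1.42.0.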

Additional observations from a re-analysis of the deposited data

Results flagged for a closer look

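Mutant 5 stood apart from the other 4 mutants in 9 of 11 values listed here. Each is a sample whose gap to its nearest neighbour exceeds 0.71 of the range of the 5 mutants, and 24 quantities were examined in this way. For independent quantities not chosen by their values, chance flags about 1 in 20. That rate does not apply here, since level chose the genes and the quantities overlap, so nothing is read from the count of 11. In log2 CPM at proximal and distal sites mutant 5 had 6.43 for Car8, against 2.56 to 2.79 in the other mutants, and 3.61 for Casq2, against 2.26 to 2.52. It had 9.47 for Inpp5a (others 8.12 to 8.45), 9.33 for Pvalb (others 7.51 to 7.60) and 5.47 for Il16 (others 2.54 to 3.14). In the upstream exon table it had 9.86 for Inpp5a (others 8.52 to 8.87) and 9.81 for Pvalb (others 8.01 to 8.13). The granule list mean was 6.81 in mutant 5 and 4.92 to 5.04 in the others, and Car8 relative to that list was -0.37 there and -2.47 to -2.17 in the others. Mutant 3 stood apart in the distal share of Gdf10, at 54.2% where the others had 66.4% to 70.8%, and in Pvalb relative to the granule list, at 2.68 where the others had 2.47 to 2.52.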

How the results depend on the processing

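No paired analysis was possible because the labels give no replicate numbers that the genotypes share. The 6 level differences kept their direction under DESeq2 size factors, library totals, the other table for Inpp5a and Pvalb, and each left-out library. DESeq2 called 21 pairs in usage within the exon, 5 between exons and 26 genes in level at proximal and distal sites, none of the 6 genes among the usage calls. Leaving out 1 library gave 0 to 1 calls in usage within the exon (1 without wild type 3) and 0 to 236 between exons (236 without mutant 5, 160 without wild type 3). It gave 0 to 68 calls in level in the first table and 0 to 63 in the second (68 and 63 without mutant 5). With the granule mean as covariate the log2 usage change turned to -0.70 for Casq2, 0.19 for Inpp5a, 0.15 for Pvalb, 0.20 for Il16 and 0.0315 for Gdf10, and to 1.37 for Inpp5a between exons; the covariate and genotype vary together. Leaving out 1 library, it ran from -0.15 to 0.46 for Casq2 and from -0.144 to 0.0395 for Inpp5a, and from -1.86 to 0.10 for Inpp5a between exons; the share differences ran from -0.21 to 1.83 points for Casq2 and from -0.169 to 0.0409 for Inpp5a. Pooling reads gave 0.249 points for Il16, in place of -1.69. Relative to the Purkinje list, a yardstick added after seeing the data, differences were -3.09 for Car8, -0.76 for Casq2, -0.59 for Inpp5a, -1.40 for Pvalb, -1.98 for Il16 and -0.67 for Gdf10. The cause of these turns was not tested. The few reads of Car8, Casq2 and Il16 in mutants 1 to 4 limit their shares.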
